A study of Mus musculus with 8 samples.

Results

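RNA granules are assemblies of mRNA and RNA-binding proteins, and 10 genes that build or regulate them, Tdrd7, Pabpc1, Rbm24, Celf1, Caprin2, Caprin1, Stau1, Stau2, Ddx6 and G3bp1, were followed in mouse lens fiber cells (FC) after cigarette smoke (CS) exposure. The genes were chosen by symbol in the deposited table. All 10 were present, of 35275 genes listed, and all 10 reached the minimum of 1.0 FPKM (fragments per kilobase of gene, scaled to the mapped reads of each library) in the mean of a group that 9794 genes passed. In these FC the levels of all 10 genes after CS exposure lay close to those of the controls. Caprin2 and Pabpc1 had the largest differences, with fitted folds of 1.13 and 1.10 (4 libraries per group), and none of the 10 genes passed the test after adjustment over all genes tested.

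The RNA was from C57BL/6 mice (C57BL/6J in the study's methods), and the labels name no engineered allele. The exposed mice were born in a whole-body smoke chamber and received CS for 5 hours/day on 5 days/week over 3.5 months, and the untreated Ct mice were age-matched. Each group had 4 libraries, and each library was 1 pool of FC from 4 eyes, so that mouse-to-mouse spread was averaged within a pool. Each group held 2 male and 2 female pools by the study's methods, but which library is of which sex is not given in the sources used here.

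Lens FC lose their nuclei and other organelles as they mature, and from then on their proteins are made from stored mRNA, so that binding, storage and decay of mRNA carry much of their gene regulation. Stress granules hold mRNA whose translation has stalled, processing bodies (P-bodies) hold mRNA with factors of decapping and decay, and transport granules carry mRNA to a place in the cell. Loss of Tdrd7 causes cataract in humans and mice, and Celf1, Rbm24 and Caprin2 are likewise linked to lens or eye development in animal models.

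All pools carried the profile of FC. The 10 fiber markers, among them Crygs, Mip and Bfsp1, had a mean log2 level between 9.90 and 10.01 in every library. Epithelial RNA was present, and the mean log2 level of 6 epithelial markers was 3.12 to 4.19 in untreated Ct and 3.03 to 3.67 in CS-exposed libraries. The third untreated Ct library was highest, with Foxe3, an epithelial transcription factor, at 64.0 FPKM against 17.5 to 34.8 FPKM elsewhere. Rod photoreceptor markers separated the groups, with a summed level of 6.93 to 24.0 FPKM in untreated Ct and 26.9 to 87.2 FPKM in CS-exposed libraries. Of the 9 rod markers 8 were tested, and all 8 were higher after CS at an unadjusted limma p under 0.05. The pigment epithelium markers summed to 0.851 to 0.994 FPKM in untreated Ct and 1.65 to 7.42 FPKM in CS-exposed libraries, with Best1 at 0 in all 8. Blood markers reached 22.8 FPKM in the fourth CS-exposed library, and immune markers stayed at 0.807 FPKM or less in sum. The corneal markers summed to 1.99 to 4.61 FPKM in untreated Ct and 0.443 to 7.13 FPKM in CS-exposed libraries. The part of rod, pigment epithelium, blood, immune and corneal RNA in the values below was not tested, the relation to the epithelial score is given further on, and in pooled tissue fewer cells of a type and less RNA per cell cannot be told apart. The depth was an estimated 18100000 to 23300000 fragments per library, and at this depth 600 or more reads stood behind every value of the 10 genes.

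The 10 genes spanned a wide range of levels. Tdrd7 was highest with a mean of 397 FPKM over the 8 libraries, followed by Pabpc1 at 305, Rbm24 at 70.3, Celf1 at 68.7, Caprin2 at 33.5, Caprin1 at 32.4, Stau1 at 10.6, Stau2 at 9.98, Ddx6 at 7.88 and G3bp1 at 7.13 FPKM. The cataract gene Tdrd7 stood above 98.7% of the tested genes, while G3bp1, the stress granule nucleator, stood above 63.3%. Tdrd7 exceeded Pabpc1 in 8 of 8 libraries, and the ranges of this pair did not overlap. The ranges overlapped for the neighbours Rbm24 and Celf1, Caprin2 and Caprin1, Stau1 and Stau2, Stau2 and Ddx6, and Ddx6 and G3bp1. Compared within each library, Stau2 exceeded Ddx6 in 8 of 8 libraries (log2 difference 0.33 ± 0.14, SD, n = 8) and Ddx6 exceeded G3bp1 in 8 of 8 (0.14 ± 0.05). The other overlapping pairs kept no single order, with Rbm24 above Celf1 in 5 of 8 libraries, Caprin2 above Caprin1 in 5 of 8 and Stau1 above Stau2 in 6 of 8.

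**Figure D1:**
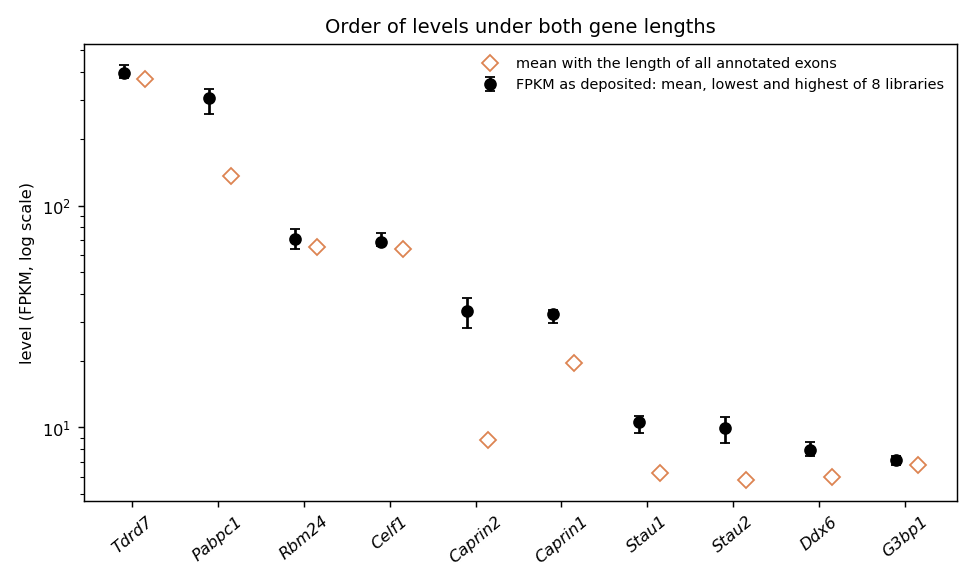
Level of each gene in FPKM on a log axis, as the mean of 8 libraries with the lowest and highest library as bars (filled circles), and the same mean recomputed with the length of all annotated exons (open diamonds). Tdrd7 is highest under both lengths, whereas Caprin2 lies beside Caprin1 at 33.5 FPKM as deposited and below it at 8.76 FPKM with all exons.

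The order of some genes depended on the gene length behind the FPKM. For 8 of the 10 genes the length used was within 0.2% of the longest coding transcript in the GENCODE M21 annotation. Rbm24 differed from it by 4.08% and Pabpc1 by 3.44%. With the length of all annotated exons, Caprin2 (14140 in place of 3697 bases) came to 8.76 FPKM and Caprin1 to 19.6 FPKM, a Caprin2 to Caprin1 ratio of 0.448, while Pabpc1 came to 136 FPKM and stayed second. The orders of Stau2 over Ddx6 and of Ddx6 over G3bp1 turned with that length, to ratios of 0.971 and 0.880, and G3bp1 moved from place 10 to place 7. Comparisons between CS-exposed and untreated Ct mice do not depend on this length.

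Several of the genes made up most of their family's RNA in these FC. Of the summed FPKM of 8 Tudor domain genes of the TDRD family, Tdrd7 held 94.4% to 94.9% across the libraries, and the next, Tdrkh, had a mean of 14.3 FPKM. Celf1 held 94.1% to 95.3% of the sum of 6 CELF genes, with Celf2 next at 3.48 FPKM. Pabpc1 held 95.4% to 96.7% of the sum of 6 cytoplasmic poly(A)-binding protein genes, with Pabpc4 next at 11.7 FPKM. Pabpc2 and Pabpc6 were listed at 0 in all libraries, and since near-identical copies can share reads the split within this family is uncertain. Rbm24 held 82.4% to 86.7% of its sum with the paralog Rbm38. As deposited, Caprin2 held 48.6% to 53.1%, Stau1 49.5% to 53.5% and G3bp1 52.8% to 61.2% of the sum of its pair with the paralog. These shares rest on the deposited gene lengths, and with all exons the level of Caprin2 was 0.448 times that of Caprin1. The ranges of these shares in CS-exposed and untreated Ct libraries overlapped for all 7 families.

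Across the 9794 tested genes 473 had an unadjusted limma p under 0.05, which is 4.83% of those tested, and 1 (0.0102%) had a Benjamini-Hochberg adjusted p under 0.05. Of the 10 genes 2, Caprin2 and Pabpc1, had an unadjusted p under 0.05 and 0 had an adjusted one, the adjusted limma p values running from 0.956 to 0.995. With 10 genes, nothing particular to them is read from this count. The levels were higher after CS in 7 genes and lower in 3, and the median log2 fold change was 0.04 against 0.0043 over all tested genes, of which 51.2% were higher. The median absolute log2 fold change of the 10 genes was 0.04 against 0.08 over all tested genes. The residual SD of the 10 genes had a median of 0.08 on the log2 scale against 0.17 over all tested genes, so that smaller differences could be bounded here than for a typical gene. Of the 8 genes without an unadjusted p under 0.05, none had a 95% interval that reached beyond 0.24 in either direction.

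**Figure D2:**
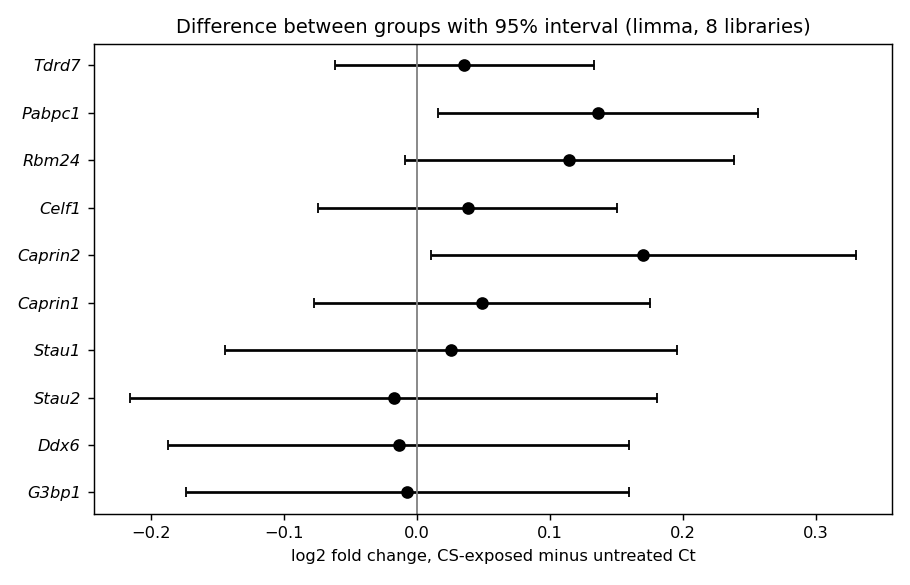
Log2 fold change of each gene (horizontal axis, CS-exposed minus untreated Ct, limma over 8 libraries) with its 95% interval as a bar. Only the intervals of Pabpc1 (0.02 to 0.26) and Caprin2 (0.01 to 0.33) lie above 0, before any adjustment for the number of genes.

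Caprin2 encodes an RNA-binding granule protein of the Caprin family, and it lies on chr6:148842492-148896237 (GRCm38, minus strand). It was measured at 33.8, 32.0, 27.9 and 32.4 FPKM in untreated Ct libraries 1 to 4 and at 38.2, 35.7, 35.8 and 32.3 FPKM in CS-exposed libraries 1 to 4. Of the CS-exposed libraries 3 of 4 lay above all untreated Ct libraries, and the fourth was inside their range. The means were 31.5 ± 2.53 and 35.5 ± 2.44 FPKM (SD, n = 4 each). The log2 fold change was 0.17 (SE 0.07, 95% interval 0.01 to 0.33). The difference had an unadjusted limma p of 0.039 and an adjusted p of 0.956, and an exact permutation p of 0.0857 (two-sided). Without untreated Ct library 3, the lowest, the log2 fold change was 0.11 with a limma p of 0.119 (unadjusted), and it also lost a p under 0.05 without untreated Ct library 2 or CS-exposed library 1, 2 or 3. Centring of the libraries on their median gave 0.17, quantile normalization 0.14 and eBayes without trend 0.17, none with a p under 0.05.

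Caprin1, the paralog of Caprin2, binds G3bp1 in stress granules and lies on chr2:103762941-103797649 (minus strand). Its levels were 33.3, 33.4, 29.6 and 31.2 FPKM in untreated Ct and 33.9, 33.0, 31.6 and 33.2 FPKM in CS-exposed libraries. The groups overlapped, with means of 31.9 ± 1.82 and 32.9 ± 0.960 FPKM (SD, n = 4 each) and a log2 fold change of 0.05 (95% interval -0.08 to 0.18, adjusted limma p 0.985), which was 0.01 without untreated Ct library 3. The log2 ratio of Caprin2 to Caprin1, which does not depend on the scaling of the library, averaged -0.02 in untreated Ct and 0.10 in CS-exposed libraries. This difference of 0.12, against SDs of 0.07 and 0.10 within the groups, did not pass the test (exact permutation p = 0.114, adjusted p = 0.4 over 4 ratios), and 3 of 4 CS-exposed libraries exceeded all untreated Ct libraries. Without CS-exposed library 4, which lay inside the untreated Ct range, it was 0.17 with an exact permutation p of 0.0286. That is the smallest p possible with that library left out. With each other library left out, the exact permutation p ran from 0.0857 (without untreated Ct library 4) to 0.229 (without CS-exposed library 3).

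Pabpc1 encodes the main cytoplasmic protein that coats the poly(A) tail of mRNA and lies on chr15:36595661-36609668 (minus strand). Its levels were 294, 301, 259 and 310.7 FPKM in untreated Ct and 321, 311.0, 311.1 and 335 FPKM in CS-exposed libraries. The groups did not overlap, which held for 1 of the 10 genes and for 3.08% of the tested genes (1.80% with CS-exposed higher). The gap between the lowest CS-exposed and the highest untreated Ct library was 0.261 FPKM, whereas the counting error of the latter (16394 reads) was 2.43 FPKM, so that the separation was smaller than counting error. The means were 291 ± 22.3 and 319 ± 11.2 FPKM (SD, n = 4 each). The log2 fold change was 0.14 (SE 0.05, 95% interval 0.02 to 0.26). The unadjusted limma p was 0.0296, the adjusted p was 0.956, and the exact permutation p of 0.0286 is the smallest that 4 against 4 libraries can give. Without untreated Ct library 3, which lay 34.4 FPKM below the next, the log2 fold change was 0.08 with an unadjusted limma p of 0.0738, and the p was also above 0.05 without CS-exposed library 1 or 4. Median centring gave 0.13 and eBayes without trend 0.14, both without a p under 0.05.

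**Figure D3:**
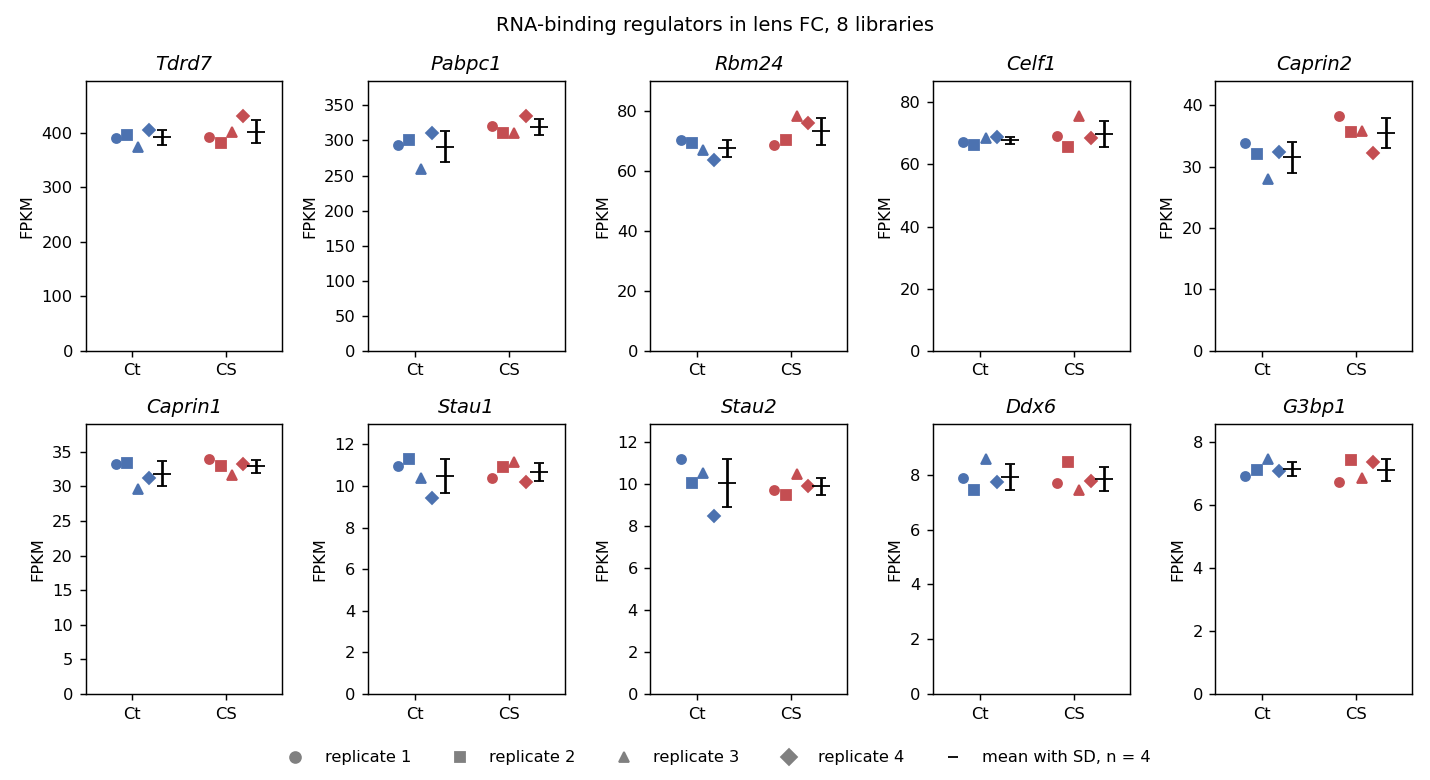
FPKM of the 10 genes in each library (vertical axes from 0), with untreated Ct (Ct, blue) and CS-exposed (CS, red) pools, a marker shape per replicate number, and mean with SD (n = 4) in black. The Pabpc1 libraries of both groups meet at about 311 FPKM, and untreated Ct library 3 is the lowest for Tdrd7, Pabpc1, Caprin2 and Caprin1.

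Tdrd7, a Tudor domain protein of RNA granules, lies on chr4:45965334-46034761 (plus strand). Its levels were 391, 397, 374 and 406 FPKM in untreated Ct and 393, 382, 403 and 431 FPKM in CS-exposed libraries. The groups overlapped, and only CS-exposed library 4 stood above all untreated Ct libraries. With 27301 or more reads per library this was the most precisely counted of the 10 genes, and its log2 fold change was 0.04 (95% interval -0.06 to 0.13, adjusted limma p 0.985). On a linear scale this interval ran from 0.958-fold to 1.10-fold. With each library left out, the log2 fold change ran from 0.0019 (without CS-exposed library 4) to 0.06 (without CS-exposed library 2), and it was 0.01 without untreated Ct library 3.

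Celf1 binds GU-rich sequences and controls decay, translation and splicing of its targets, and lies on chr2:90940382-91019497 (plus strand). Its levels were 67.2, 66.4, 68.6 and 68.9 FPKM in untreated Ct and 69.1, 65.7, 75.5 and 68.4 FPKM in CS-exposed libraries. The untreated Ct libraries were close together, and CS-exposed library 3 stood apart as the highest. The log2 fold change was 0.04 (95% interval -0.07 to 0.15, adjusted limma p 0.985) and turned to -0.0044 under quantile normalization and to -0.0013 without CS-exposed library 3, so that no direction can be given.

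Rbm24, an RNA recognition motif protein that acts on mRNA stability, polyadenylation and splicing, lies on chr13:46418434-46431095 (plus strand). Its levels were 70.3, 69.1, 66.8 and 63.7 FPKM in untreated Ct and 68.5, 70.1, 78.2 and 75.8 FPKM in CS-exposed libraries. CS-exposed libraries 3 and 4 stood above all untreated Ct libraries, while 1 and 2 lay among them. The means were 67.5 ± 2.91 and 73.1 ± 4.60 FPKM (SD, n = 4 each). The log2 fold change was 0.11 (SE 0.06, 95% interval -0.01 to 0.24, adjusted limma p 0.956), with an exact permutation p of 0.143. Without CS-exposed library 1 it was 0.15 with an unadjusted limma p of 0.0325, and limma-voom on the recovered reads gave 0.11 with an unadjusted p of 0.0451. Of 18 alternatives only these 2 had an unadjusted p under 0.05. Without CS-exposed library 3 the log2 fold change was 0.08 with an unadjusted limma p of 0.186. The unadjusted limma p was 0.151 for eBayes without trend. The log2 ratio of Rbm24 to Celf1 differed by 0.08 between groups (exact permutation p = 0.2, adjusted p = 0.4), and by 0.04 without untreated Ct library 4 and 0.05 without CS-exposed library 4.

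The remaining 4 genes were lower in level, and none had an unadjusted limma p under 0.05. Stau1 (chr2:166947549-166996299) and Stau2 (chr1:16228674-16520112), which bind double-stranded RNA in transport and decay, ranged from 9.40 to 11.3 FPKM and from 8.49 to 11.2 FPKM. The log2 fold change of Stau1 was 0.03 (95% interval -0.14 to 0.20) and that of Stau2 was -0.02 (95% interval -0.22 to 0.18). The log2 ratio of Stau2 to Stau1 differed by -0.04 (exact permutation p = 0.514), and by -0.08 to -0.01 with each library left out. Ddx6 (chr9:44604892-44640731), the RNA helicase that P-bodies need, ranged from 7.44 to 8.57 FPKM with a log2 fold change of -0.01 (95% interval -0.19 to 0.16). G3bp1 (chr11:55469685-55504838) ranged from 6.75 to 7.46 FPKM with a log2 fold change of -0.01 (95% interval -0.17 to 0.16). The exons of G3bp1 overlap those of Mir7652 by 56 bases on the same strand, and no exon of the other 9 genes overlaps an exon of another gene. The adjusted limma p values of these 4 genes were between 0.991 and 0.995. Each of the 4 changed the sign of its log2 fold change when 1 library was left out.

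The highest libraries of these genes were not the same. Caprin2 was highest in CS-exposed library 1, Pabpc1 and Tdrd7 in CS-exposed library 4, and Rbm24 and Celf1 in CS-exposed library 3. The rod markers were highest in CS-exposed library 3, and the blood markers in CS-exposed library 4. Over the 8 libraries Pabpc1 had a Pearson r of -0.80 with the epithelial score (permutation p = 0.0228, adjusted p = 0.224 over 10 genes), and a Spearman rho of -0.57 (permutation p = 0.151, adjusted p = 0.428). Without untreated Ct library 3 and CS-exposed library 4, the farthest from the median score, r was -0.06. Without untreated Ct library 3 alone it was -0.40, and without CS-exposed library 4 alone it was -0.75. Leaving out both libraries also narrows the range of the score. Caprin1 had an r of -0.68, Tdrd7 an r of -0.68 and Caprin2 an r of -0.53, and without both libraries these were -0.09, -0.09 and -0.02. Leaving out the same libraries moved r the other way for Stau1, from 0.35 to 0.72, and for Rbm24, from -0.04 to 0.71. None of the 10 genes passed the adjusted threshold for this relation.

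**Figure D4:**
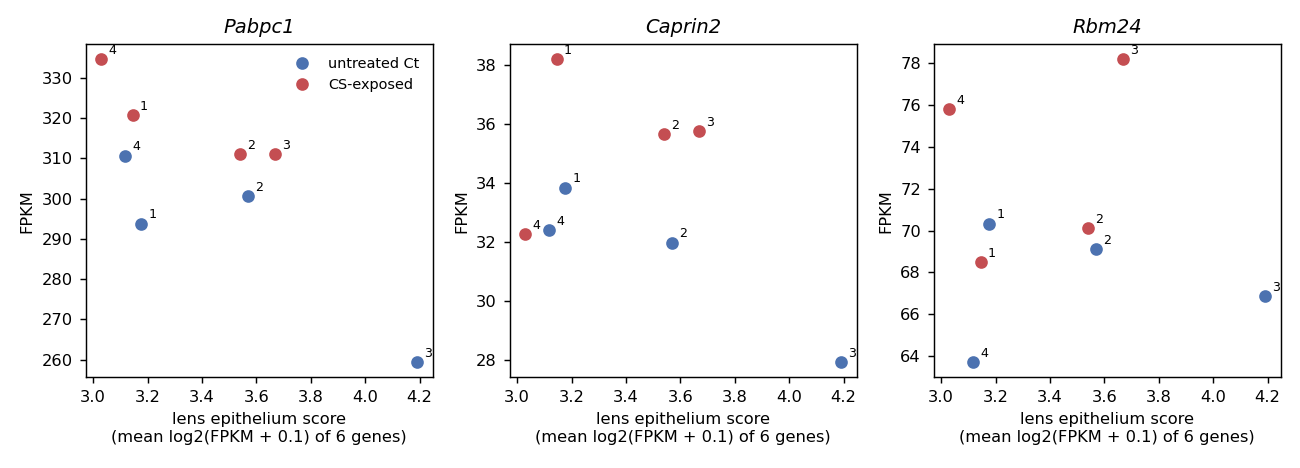
FPKM of Pabpc1, Caprin2 and Rbm24 (vertical axes, not starting at 0) against the lens epithelium score, the mean log2(FPKM + 0.1) of 6 epithelial markers (horizontal axis), one point per library with its replicate number, untreated Ct in blue and CS-exposed in red. Untreated Ct library 3 lies alone at a score of 4.19 with the lowest Pabpc1 and Caprin2, while Rbm24 has an r of -0.04 over all 8 libraries and of 0.71 without untreated Ct library 3 and CS-exposed library 4.

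Promoter sequences are shown for Caprin2 and Rbm24, 2 of the 3 genes with the largest differences, since the aryl hydrocarbon receptor AHR, which responds to smoke constituents, acts through sites with the core GCGTG (searched on both strands, in capitals below). They are the 250 bases before the RefSeq start in GRCm38.p6, at chr6:148896238-148896487 (minus strand) and chr13:46418050-46418299 (plus strand), 5′ to 3′.
Caprin2: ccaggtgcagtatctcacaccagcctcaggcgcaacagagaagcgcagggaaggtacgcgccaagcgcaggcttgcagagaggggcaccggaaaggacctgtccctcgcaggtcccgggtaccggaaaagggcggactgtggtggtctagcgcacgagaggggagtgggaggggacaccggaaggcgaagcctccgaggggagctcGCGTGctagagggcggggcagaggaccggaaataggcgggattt
Rbm24: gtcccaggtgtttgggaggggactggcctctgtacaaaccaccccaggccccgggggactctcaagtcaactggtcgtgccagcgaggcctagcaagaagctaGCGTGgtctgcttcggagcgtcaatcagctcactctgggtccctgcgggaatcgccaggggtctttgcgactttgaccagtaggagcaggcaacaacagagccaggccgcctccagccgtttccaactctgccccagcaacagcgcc
Each held 1 such core, and 28.2% of 32851 mouse promoters of the same length held at least 1. RefSeq sequence was at hand for 10 promoters of 7 of the 10 genes, and Stau2, Pabpc1 and Ddx6 had no entry. The core was in 7 of these 10 promoters, whose GC content ran from 47.6% to 78.0%. None held the antioxidant response core TGACNNNGC of NRF2 (10.2% of all promoters) or the cAMP response element TGACGTCA (1.55%), both strands searched. The GC box GGGCGG, which 32.7% of all promoters hold, was present in Caprin1, Caprin2, Celf1, G3bp1, Stau1 and Tdrd7 and not in Rbm24. CCAAT (33.8% of all) was found in G3bp1 alone among the 10 promoters, and TATAAA (12.4%) in G3bp1 and in 1 of the promoters of Tdrd7. A match gives only the presence of these letters.

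Short elements in the 3′UTR of an mRNA can bind proteins that act on its decay or translation. Of each gene 1 coding transcript was searched, that with the longest coding part, and other annotated 3′UTRs were not. Of 3 elements searched in this transcript, none was found in Caprin2, Tdrd7, Stau1, Stau2 or Pabpc1. Its 3′UTR was 338 bases long in Caprin2 and 439 bases in Pabpc1. The GU-rich element of Celf1 was found in none of the 10 genes and in 3.62% of 8672 tested genes. The AU-rich element TATTTAT was present in the 3′UTR of 4 of the 10 genes against 27.6% of the tested genes, and Rbm24 held 4 of them, shown here with the element in capitals and bases around it (GRCm38, plus strand, 5′ to 3′).
Rbm24 chr13:46430142-46430164: tgtctttcTATTTATtacataga
Rbm24 chr13:46430309-46430331: tttaaaacTATTTATtagtgact
Rbm24 chr13:46430421-46430443: atttaagaTATTTATttttaagt
Rbm24 chr13:46431007-46431029: gtgcaaatTATTTATttgttgtg
The Pumilio element TGTANATA was present in 1 of the 10 genes, Ddx6, against 24.9% of the tested genes, and both of its sites are shown in the same way.
Ddx6 chr9:44637156-44637179: atccacacTGTACATAcatgtatt
Ddx6 chr9:44637437-44637460: ataaacttTGTAAATAagtttttt
Only the transcript strand was searched. The 3′UTR searched ranged over the 10 genes from 245 bases in Tdrd7 to 6132 bases in Celf1, with a median of 971 bases over the tested genes.

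Transcripts that have been linked to these regulators in the lens were compared in the same fit. Of 10 such genes, 0 had an unadjusted limma p under 0.05, and their median log2 fold change was 0.04. Hspb1, a small heat shock protein reported as bound by Tdrd7, was at 4256 ± 111 FPKM in untreated Ct and 4371 ± 146 FPKM in CS-exposed libraries (SD, n = 4 each). Sparc, a matricellular protein, was at 315 ± 35.6 and 310.4 ± 32.3 FPKM. Dnase2b, the nuclease that removes fiber cell DNA, was at 70.1 ± 5.72 and 72.1 ± 3.995 FPKM. The cell cycle inhibitors Cdkn1b and Cdkn1c had log2 fold changes of 0.13 and -0.03, and the transcription factors Pax6, Prox1 and Sox2 had -0.07, -0.02 and 0.09.

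The wider machinery was covered by 10 lists with 130 genes, of which 111 were tested. An unadjusted limma p under 0.05 was reached by 5 genes that were higher and 2 that were lower after CS, 6.31% of those tested against 4.83% of all tested genes (2.75% higher and 2.08% lower), and by 0 after adjustment. Of 20 stress granule genes, Fmr1, the RNA-binding protein lost in fragile X syndrome, was at 4.68, 4.95, 4.35 and 4.48 FPKM in untreated Ct and 5.19, 5.35, 5.67 and 5.92 FPKM in CS-exposed libraries. Its groups did not overlap, with a log2 fold change of 0.26 (adjusted limma p 0.956). Its partner Nufip2 had a log2 fold change of 0.23 (9.25 against 10.9 FPKM). The most abundant stress granule genes were Ybx1, a cold shock domain protein, at 624 and 616 FPKM, and Fxr2, a relative of Fmr1, at 84.5 and 85.2 FPKM in untreated Ct and CS-exposed mice. The median log2 fold change of this list was 0.01.

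Among 17 genes of P-bodies and decapping, only the decapping cofactor Dcp1b reached an unadjusted p under 0.05, with 1.02 ± 0.298 against 1.51 ± 0.178 FPKM (SD, n = 4 each) and a log2 fold change of 0.56. This gene lies near the minimum level of the test. Lsm4 and Lsm7, of the ring that binds decapping substrates, were at 109 and 41.6 FPKM in untreated Ct and at 109 and 44.4 FPKM in CS-exposed mice. None of 17 tested deadenylation genes reached that p, Tob1, which recruits the deadenylase, being at 40.5 and 40.7 FPKM and Cnot2 at 11.7 and 10.7 FPKM. None of 10 tested genes of miRNA silencing did, with Drosha at 15.6 FPKM in both groups and Tnrc6b at 4.40 and 4.45 FPKM. None of 5 tested genes of poly(A)-binding proteins and their partners did, with Paip1 at 41.8 and 43.3 FPKM and Paip2, which represses poly(A)-binding protein, at 39.5 and 42.1 FPKM.

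Among 5 tested relatives of Celf1 and Rbm24 none reached that p, with Rbm38 at 13.0 and 12.6 FPKM and Mbnl2 at 8.79 and 9.78 FPKM. Of 5 tested Tudor domain genes, the splicing factor Smndc1 was lower at 10.5 against 8.78 FPKM (log2 fold change -0.27), Tdrkh was at 13.7 and 14.8 FPKM, and Tdrd1 was listed at 0 in all libraries. None of 9 genes of double-stranded RNA binding reached that p, with Ilf2 at 16.1 and 17.9 FPKM (log2 fold change 0.15). Of 13 tested genes of RNA transport, the exon junction helicase Eif4a3 (16.4 against 18.5 FPKM, log2 fold change 0.17) and Hnrnpu (3.45 against 4.12 FPKM, 0.26) were higher, while Magoh, of the same exon junction complex as Eif4a3, was lower (7.89 against 5.92 FPKM, log2 fold change -0.46). The groups of Eif4a3 did not overlap, whereas Magoh ran from 3.47 to 7.70 FPKM in CS-exposed and from 7.11 to 8.86 FPKM in untreated Ct libraries. Rbm8a, which pairs with Magoh, was at 25.3 and 25.9 FPKM. All of these had an adjusted limma p of 0.956 or more.

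The genes whose pattern over the 8 libraries was most like that of Caprin2 were Rtn4rl1 (Pearson r 0.97), Lphn2 (0.96), Hcfc1r1 (0.96), Sirt2 (0.96) and Cyb5r3 (0.95) on the log2(FPKM + 0.1) scale. They were the highest of 9794 genes over 8 libraries that differ in depth and in epithelial score, and are given as a description. Of the other 9 genes Caprin1 was the nearest in this order, with an r of 0.69, and Pabpc1 was next, also with 0.69. For Caprin1 the Spearman rho was 0.36, and r was -0.03 without the 2 libraries farthest from the Caprin1 median.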

How the data were processed

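RNA of 8 pools of lens FC, 4 untreated Ct and 4 CS-exposed, had been sequenced with paired reads of 150 bases from NEBNext Ultra libraries, whose strand setting is not given in the sources used here. Per the labels, the authors aligned the reads to GRCm38 with STAR 2.5, ran HTSeq 0.6.1 to count reads per gene (versions from the submitters' processing notes) and deposited the FPKM values of each library. The annotation release is not given in the sources used here. The file also holds group means and a log2 fold change, p-value and adjusted p-value of the authors' own comparison, made with DESeq2, which were not used.

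Groups and replicate numbers were taken from the labels, which call the pools biological replicates. The fit took every gene whose mean in untreated Ct or CS-exposed libraries reached 1.0 FPKM, on the log2(FPKM + 0.1) scale, in limma 3.58.1 under R 4.3.3 (lmFit, then eBayes with a variance trend), two-sided, with Benjamini-Hochberg adjustment over all 9794 genes. All p values called limma p are from this fit, and fold changes on this scale understate those of low genes. Single values were also compared over all 70 assignments of the libraries (two-sided exact permutation, smallest p 0.0286). Depth was found from the steps of the FPKM values, which gave whole reads, within 0.06 reads, for 9774 of 9794 genes (99.8%). The 10 regulators, the lists and the markers were chosen with earlier results of these data known. The text names all 10 regulators, some of the markers behind the scores and the 5 genes most like Caprin2. From each list it names the genes with an unadjusted p under 0.05, the 2 most abundant and those at 0. Other targets and the family members were named for their role after the values had been seen. Sequences were taken from RefSeq (GRCm38.p6) and GENCODE M21 tables.

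On simulated data for this comparison with 200 changed genes (9661 tested), 74.5% of 98 genes changed by 0.5 on the log2 scale and 100% of 99 changed by 1 were found at an adjusted p under 0.05, and 0.1% of 9464 unchanged genes were called. Alternatives were other pseudocounts (1 and 0.01), no minimum or one of 5 FPKM, median centring, quantile normalization, eBayes without trend or robust, a replicate block, each library left out, other score markers and medians of levels. Limma-voom on the recovered reads and the level with all exons were added after seeing the data. Python 3.11.15 with numpy 2.4.6, pandas 2.3.3 and matplotlib 3.10.9 gave the remaining values and the figures. The proteome and metabolome of the study were not analysed here, and 1 gene that the naming rule covers is not reported here.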

Additional observations from a re-analysis of the deposited data

How the results depend on the processing

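Of 180 alternative limma fold changes of the 10 regulators, 154 kept their direction and their side of the unadjusted threshold, 13 were weaker, 2 stronger and 11 reversed. The lowest adjusted limma p of any of them was 0.805. Regulators with an unadjusted p under 0.05, 2 as reported, were 0 after median centring, 1 after quantile normalization, 0 for eBayes without trend, 3 with limma-voom on recovered reads (Rbm24 added), and 0 to 2 with each library left out (0 without untreated Ct library 3, and 1 without untreated Ct library 2 or any 1 CS-exposed library). Caprin2 kept an unadjusted p under 0.05 in 10 of 18 alternatives (0.0151 to 0.119) and Pabpc1 in 13 of 18 (0.00592 to 0.111). Genes with an adjusted p under 0.05, 1 as reported, were 0 without a minimum FPKM, 0 for eBayes without trend, 2 with limma-voom on recovered reads, and 0 to 1 with each library left out (0 without untreated Ct library 4). Genes with an unadjusted p under 0.05 numbered 862 without a minimum, 226 at a minimum of 5 FPKM, and 418 to 525 with each library left out, against 473. The cause of these shifts was not tested.

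Same-numbered libraries deviated together with correlations of 0.012, 0.0777, 0.111 and 0.161, on average 0.0904 against -0.0301 for different numbers. Of the 8 libraries 6 correlated best with their own number. These values do not decide whether the numbers pair the samples. With the replicate number as a block, 5 genes had an adjusted p under 0.05, and 2 regulators had an unadjusted one.

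Left-out libraries turned the log2 fold change of Celf1 (-0.0013 to 0.066), Stau1 (-0.026 to 0.061), Stau2 (-0.096 to 0.035), Ddx6 (-0.050 to 0.024) and G3bp1 (-0.029 to 0.017), and quantile normalization that of Celf1 (-0.0044). That of Caprin1 ran from 0.01 to 0.07 and that of Tdrd7 from 0.0019 to 0.06. The difference in the log2 ratio of Caprin2 to Caprin1 ran from 0.10 to 0.17. Of 160 alternative correlations with the epithelial score 7 reversed, those with a library left out running from -0.65 to 0.17 for Caprin2, -0.20 to 0.24 for Celf1, -0.31 to 0.33 for Rbm24 and -0.10 to 0.66 for Ddx6, and Rbm24 was at 0.026 without Foxe3 and 0.019 without Aqp1.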
